A study of Mus musculus with 8 samples.

Results

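The 10 heat shock chaperone genes described here were measured in mouse pre-germinal center B cells helped by T cells with either 1 or both functional copies of Bcl6. They are Hspa1a, Hspa1b, Dnajb1, Hsph1, Hspa8, Hsp90aa1, Hsp90ab1, Hspd1, Hspe1 and Hsf1, found by symbol among the 24259 genes of the count table. All 10 passed the filter on low counts, which left 12744 genes. The genes were selected on their function together with measured levels from the very contrast described here, the CPM (counts per 1000000, scaled for library composition) of these libraries. Their differences between the groups are therefore a description and carry no test.

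The B cells were C57BL/6 and bound the hapten NP, carried little IgD and were B220+, and they were sorted from lymph nodes 3 days after immunization with NP-OVA. Per the study's methods, hosts in both groups were CD45.1 Sap-/- mice, whose own T cells help germinal centers poorly, and had received OT-II T cells (which recognise an ovalbumin peptide) before NP-OVA with LPS in alum. The methods name only T cells as transferred here, so the sequenced B cells came from these Sap-/- hosts. In the HET group, the transferred cells were CD4-Cre x Bcl6fl/+ OT-II T cells. In the WT group they were CD4-Cre OT-II T cells, so Cre was present in both. CD4-Cre acts in T cells, and the sequenced B cells carry no deletion that could serve as a check of the group names. Ages of the mice were not given in the sources used here. Recipients of one group were pooled, and 4 repeats of about 200 cells were sorted from each pool. The 4 libraries of a group are thus repeats of 1 pool, their spread is technical, and a difference between groups cannot be told apart from one between pools.

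Heat shock proteins hold unfolded proteins and help them fold. In the cytosol, HSP70 binds exposed stretches of a client, J-proteins such as DNAJB1 deliver clients and drive its ATP cycle, exchange factors such as HSPH1 (HSP110) release them, and HSP90 completes the folding of kinases and receptors. In mitochondria, HSPD1 (HSP60) and its lid HSPE1 (HSP10) enclose a client in a chamber. HSF1 is the transcription factor that induces many of these genes when unfolded protein accumulates, and it binds alternating GAA and TTC units called heat shock elements. The inducible HSP70 genes Hspa1a and Hspa1b are also known for responding to handling of cells and to activation of lymphocytes.

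Total counts ranged from 6652386 to 12559189 per library, and 3 counts corresponded to between 0.241 and 0.455 CPM. HET 1, the deepest library, had the lowest level among HET libraries for 8 of the 10 genes, and WT 2 had the highest among WT libraries for 7. Fitted over all genes with edgeR's quasi-likelihood test, 3 of 12744 genes passed an adjusted p under 0.05, or 0.0235%, and 0 of the 10 chaperone genes were among them. At an unadjusted p under 0.05, the counts were 7.22% of all genes and 4 of the 10 (Hspa1a, Hspa1b, Dnajb1 and Hspd1). DESeq2 called 0.581% of the genes it tested and 3 of the 10 (Hspa1a, Hspa1b and Dnajb1). These 3 genes were also those with every HET library below every WT library, a pattern held by 2.62% of all genes tested. Every HET library lay above every WT library for 1.99% of all genes and for 0 of the 10. Because the choice of genes used these levels, nothing is read from these counts. Of the 10 genes, 4 had a negative log2 fold change (HET over WT), as did 50.1% of all genes, and their median was 0.11 against 0.00 over all genes.

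The stress-inducible HSP70 genes differed most between the groups. Hspa1a (ENSMUSG00000091971; GRCm38 chromosome 17, 34969190 to 34972156, minus strand) was at 11.3, 27.6, 12.3 and 0.910 CPM in HET 1 to 4. In WT 1 to 4 it was at 165, 87.6, 107 and 180 CPM. The groups did not overlap, and the lowest WT library stood well above the highest HET library. Means were 13.0 ± 11.0 CPM in HET and 135 ± 44.5 CPM in WT (SD, n = 4 each), a 10.3-fold higher level in WT and a log2 fold change of -3.36 ± 0.76 (SE). The mean rested in part on single HET libraries, since the ratio was 7.90 without HET 4 and 16.5 without HET 2. HET 4 held 6 Hspa1a counts, whose exact Poisson interval (95%) ran from 0.334 to 1.98 CPM, below the intervals of the other HET libraries, of which the lowest began at 9.54 CPM. Of all 12744 genes tested, 12 fell by more than 3 on the log2 scale in HET. Of these, 2 were among the 7270 genes whose mean log2 CPM was 4 or more, where Hspa1a had the 2nd largest fall. Hspa1a passed that cut through its WT level, and it was selected on these levels, so nothing is read from its rank.

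Hspa1b (ENSMUSG00000090877; GRCm38 chromosome 17, 34956436 to 34959238, minus strand) encodes nearly the same protein from a neighbouring gene and was much scarcer. It had 11, 7, 15 and 0 counts in HET 1 to 4, or 0.884, 0.907, 2.25 and 0 CPM, where a count of 0 in HET 4 allows up to 0.455 CPM by the floor of 3 counts and up to 0.559 CPM by the exact Poisson interval (95%). In WT 1 to 4 it had 148, 61, 61 and 100 counts, or 14.1, 6.20, 7.70 and 10.4 CPM. As with Hspa1a, no HET library reached the lowest WT library. Means of 1.01 ± 0.927 and 9.60 ± 3.46 CPM (SD, n = 4 each) gave a 9.51-fold higher level in WT and a log2 fold change of -3.24 ± 0.73 (SE). Without HET 3 the ratio was 16.1, and without HET 4 it was 7.13.

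The coding sequences of the pair, of 1926 and 1929 bases, were 99.6% identical over the 1926 bases aligned. Of all 100-base windows of the Hspa1a transcript, 47.1% also occurred in Hspa1b, and 49.9% of those of Hspa1b occurred in Hspa1a, so reads from a large part of either transcript cannot be assigned to 1 gene. How such reads were counted was not given in the sources used here, and the level of each gene alone is uncertain. Summed over both genes, counts were 152, 220, 97 and 6 in HET 1 to 4 and 1883, 923, 909 and 1823 in WT 1 to 4. The sum was 14.0 ± 11.3 CPM in HET and 144 ± 47.4 CPM in WT, and its log2 fold change was -3.36 ± 0.76 (SE). Hspa1b held 5.49% to 7.86% of the pair's counts in WT and 0% to 15.5% in HET, where the sums are small. The sum was mostly Hspa1a, so its separation repeats that of Hspa1a. Reads that the counting may have dropped are not restored by it.

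**Figure D1:**
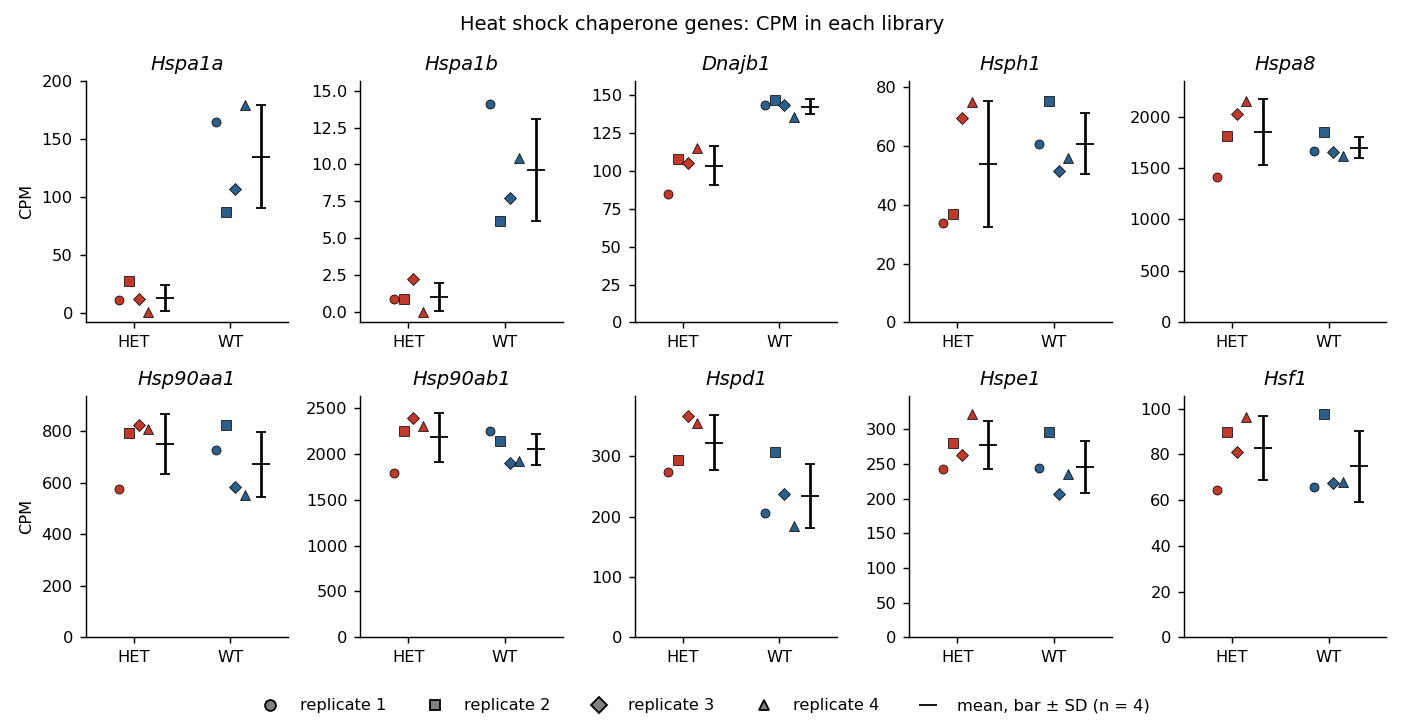
CPM of each of the 10 genes (y axis, starting at or just below 0, a separate scale per gene) in the HET and WT libraries, with a point per library shaped by replicate and the mean ± SD (n = 4) beside the points. The groups are apart for Hspa1a, Hspa1b and Dnajb1, with HET lower, and overlap for the other 7 genes.

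The promoters of the inducible genes are shown because HSF1 acts through elements of this kind, and because those of Hspa1a and Hspa1b are nearly identical. RefSeq promoter windows (GRCm38.p6, 250 bases before to 50 bases after the start) were held for 6 of the 10 genes, namely Hspa1a, Hspa1b, Dnajb1, Hsph1, Hspd1 and Hspe1. They were searched on both strands for 2 facing units, GAANNTTC or TTCNNGAA, and for 3 alternating units, which contain 2 overlapping matches of 2 units. The 200 bases before the start follow for 5 windows, with the matches of 2 units in capitals.
Hspa1a, chr17:34972157-34972356, minus strand: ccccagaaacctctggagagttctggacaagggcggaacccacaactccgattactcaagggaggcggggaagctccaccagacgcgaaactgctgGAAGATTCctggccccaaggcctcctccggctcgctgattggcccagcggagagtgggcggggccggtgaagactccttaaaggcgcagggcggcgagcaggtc
Hspa1b, chr17:34959239-34959438, minus strand: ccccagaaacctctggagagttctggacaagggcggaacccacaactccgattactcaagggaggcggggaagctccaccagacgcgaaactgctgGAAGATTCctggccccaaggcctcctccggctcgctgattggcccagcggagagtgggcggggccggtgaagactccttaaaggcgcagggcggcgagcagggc
Hsph1, chr5:149636337-149636536, minus strand: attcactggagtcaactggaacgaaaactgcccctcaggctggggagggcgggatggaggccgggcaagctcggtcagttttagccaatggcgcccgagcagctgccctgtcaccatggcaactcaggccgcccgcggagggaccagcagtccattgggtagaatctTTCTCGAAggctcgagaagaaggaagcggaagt
Dnajb1, chr8:83607975-83608174, plus strand: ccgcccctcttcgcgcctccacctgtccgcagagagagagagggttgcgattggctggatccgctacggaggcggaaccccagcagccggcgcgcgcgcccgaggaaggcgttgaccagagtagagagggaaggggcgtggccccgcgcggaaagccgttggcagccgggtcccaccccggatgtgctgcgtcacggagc
Hspe1, chr1:55087948-55088147, plus strand: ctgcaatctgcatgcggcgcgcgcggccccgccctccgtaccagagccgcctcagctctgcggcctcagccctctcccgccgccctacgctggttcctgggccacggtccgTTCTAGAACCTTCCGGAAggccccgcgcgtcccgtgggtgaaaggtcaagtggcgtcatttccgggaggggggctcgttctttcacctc

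Over 300 bases the Hspa1a and Hspa1b windows differed at 4 positions, and both held a single match 104 bases before the start and a CCAAT box 67 bases before it. Hsph1 had a match 33 bases before its first listed start and 2 further, overlapping ones 37 and 42 bases after it, which together make a 3-unit element. Hspe1 held 3 overlapping matches 89, 84 and 79 bases before the start. The same run lies on the other strand in the window of the second listed Hspd1 start, 144 to 134 bases before it, and the window of the first listed Hspd1 start held no match. Neither of the 2 windows of Dnajb1 held a match, although Dnajb1 is a gene that heat shock induces. The second of these windows lies within the annotated gene, downstream of its start. Among 32851 promoters of the table, 15.1% held a 2-unit match, 0.256% held at least 3 and 0.603% held a 3-unit element, while 37.4% held CCAAT. The matches are letters in a window, not measured binding. Only exact units were searched, so the absence of a match does not show the absence of an element. Hspa1a and Hspa1b, with 1 match each, did not overlap between HET and WT, and neither did Dnajb1, with none. Hspe1 and Hsph1, with 3 matches, overlapped, as did Hspd1, with 3 in the window of its second listed start. Whether matches and differences are linked was not tested.

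Dnajb1 (ENSMUSG00000005483; GRCm38 chromosome 8, 83608193 to 83612653, plus strand), the J-protein that works with inducible HSP70, showed a smaller and tighter difference. Its levels were 85.1, 108, 105 and 115 CPM in HET 1 to 4 and 144, 147, 143 and 136 CPM in WT 1 to 4. No HET library reached a WT library, and the WT libraries were within a narrow band. Means of 104 ± 13.0 and 143 ± 4.81 CPM (SD, n = 4 each) made WT 1.38-fold higher, with a log2 fold change of -0.46 ± 0.12 (SE). Leaving out any 1 library kept that ratio between 1.30 and 1.43.

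Hsph1 (ENSMUSG00000029657; GRCm38 chromosome 5, 149614287 to 149636376, minus strand), the HSP110 exchange factor, varied within HET more than between the groups. It was at 33.7, 36.9, 69.5 and 74.9 CPM in HET 1 to 4, a low and a high pair of libraries, and at 60.7, 75.3, 51.4 and 55.9 CPM in WT 1 to 4. The groups overlapped, with means of 53.8 ± 21.5 and 60.8 ± 10.4 CPM (SD, n = 4 each) and a log2 fold change of -0.18 ± 0.25 (SE). That value was 0.00 without HET 1 and -0.38 without HET 4, so no size can be given to it.

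Levels of the abundant cytosolic chaperones overlapped between the groups. Hspa8 (ENSMUSG00000015656; GRCm38 chromosome 9, 40800984 to 40810087, plus strand), the constitutive HSP70, was at 1410, 1813, 2026 and 2151 CPM in HET 1 to 4 and at 1667, 1852, 1654 and 1617 CPM in WT 1 to 4. The HET libraries spanned the whole WT range, and the log2 fold change was 0.12 ± 0.11 (SE). Hsp90ab1 (ENSMUSG00000023944; GRCm38 chromosome 17, 45567775 to 45573271, minus strand), the constitutive HSP90, was at 1790, 2253, 2388 and 2301 CPM in HET and 2246, 2142, 1900 and 1920 CPM in WT, with a log2 fold change of 0.09 ± 0.09 (SE). For both genes HET 1 was the lowest of all 8 libraries.

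Hsp90aa1 (ENSMUSG00000021270; GRCm38 chromosome 12, 110690605 to 110702728, minus strand) encodes the stress-inducible form of cytosolic HSP90. Its levels were 574, 796, 823 and 809 CPM in HET 1 to 4 and 726, 826, 583 and 552 CPM in WT 1 to 4. HET 1 stood apart from the other HET libraries, WT 1 and WT 2 lay above the other WT libraries, and the groups overlapped. Means were 751 ± 118 and 672 ± 128 CPM (SD, n = 4 each), with a log2 fold change of 0.16 ± 0.14 (SE).

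The mitochondrial chaperonin genes lie head to head on GRCm38 chromosome 1 and share 112 bases. Hspd1 (ENSMUSG00000025980; 55077835 to 55088243, minus strand) was at 273, 293, 366 and 356 CPM in HET 1 to 4 and at 206, 307, 238 and 184 CPM in WT 1 to 4. It was the gene with the largest positive difference of the 10, yet WT 2 lay above HET 1 and HET 2. Means of 322 ± 45.8 and 234 ± 53.5 CPM (SD, n = 4 each) made HET 1.38-fold higher, with a log2 fold change of 0.46 ± 0.15 (SE). Hspe1 (ENSMUSG00000073676; 55088132 to 55091307, plus strand) was at 242, 280, 263 and 323 CPM in HET 1 to 4 and 244, 296, 207 and 235 CPM in WT 1 to 4. Its groups overlapped more, and its log2 fold change was 0.17 ± 0.12 (SE).

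Hsf1 (ENSMUSG00000022556; GRCm38 chromosome 15, 76477422 to 76501913, plus strand), which encodes the inducer itself, was at 64.2, 89.9, 81.2 and 96.6 CPM in HET 1 to 4. In WT 1 to 4 it was at 65.9, 97.7, 67.4 and 68.0 CPM. WT 2 matched the highest HET library and the other WT libraries matched the lowest, so the groups overlapped, with a log2 fold change of 0.15 ± 0.17 (SE). HSF1 is controlled largely as a protein, and its transcript level is not a measure of its activity.

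**Figure D2:**
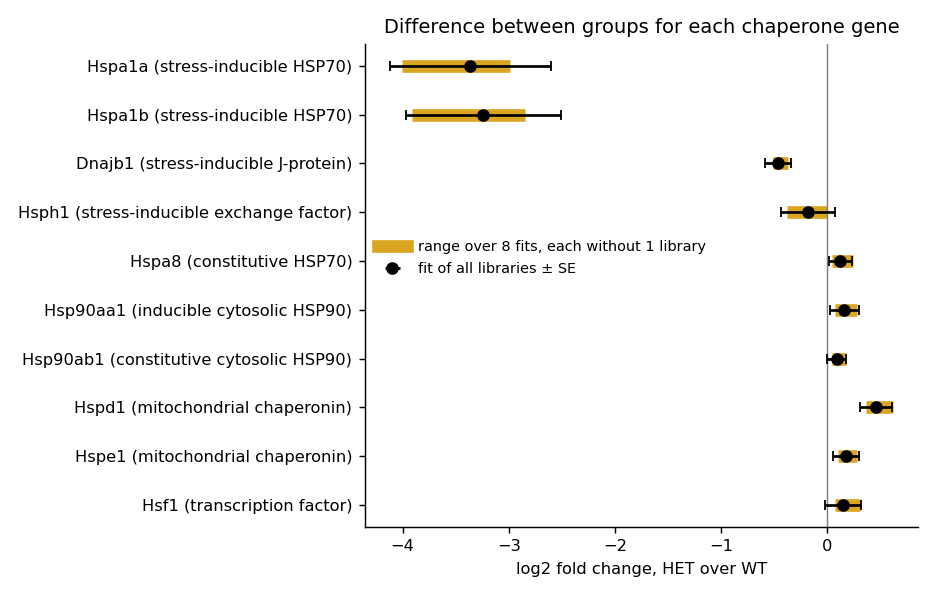
Log2 fold change (HET over WT, x axis) of each of the 10 genes with its SE from the fit of all 8 libraries (black point and line) and the range over 8 fits that each leave out 1 library (gold bar). Hspa1a and Hspa1b lie near -3.36 and -3.24, Dnajb1 at -0.46 and Hspd1 at 0.46, and the gold bar of Hsph1 runs from -0.38 to 0.00.

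The levels of the 10 genes per length, as the authors' TPM (counts per length, scaled to 1000000 in each library) over all 8 libraries, spanned from 2400 ± 271 for Hsp90ab1 to 5.77 ± 5.57 for Hspa1b (SD, n = 8). Below Hsp90ab1 came Hspa8 at 1954 ± 279 TPM, Hsp90aa1 at 733 ± 129, Hspe1 at 329.5 ± 45.3 and Hspd1 at 132 ± 31.1. Next were Dnajb1 at 87.0 ± 18.0 TPM, Hspa1a at 76.0 ± 73.4, Hsph1 at 16.2 ± 4.63 and Hsf1 at 15.8 ± 2.95. The constitutive HSP90 and HSP70 genes thus led the order over all libraries. The place of Hspa1a depended on the group, since its mean was 13.1 TPM in HET, below Hsph1 (15.0) and Hsf1 (16.4), and 139 TPM in WT, above Hspd1 (113) and Dnajb1 (102). Of the 9 neighbouring pairs in that order, 6 had overlapping ranges, and the ranges were apart between Hspa8 and Hsp90aa1, Hsp90aa1 and Hspe1, and Hspe1 and Hspd1. Although the ranges of Hsp90ab1 and Hspa8 overlapped, Hsp90ab1 was the higher in 8 of 8 libraries. Hspa1a had no fixed place, lying below Dnajb1 in only 5 of 8 libraries and above Hsph1 in 6. From 0.906 TPM in HET 4 it ranged to 184 TPM in WT 4.

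Together the 10 genes took 0.582% ± 0.0984 of all TPM in HET (range 0.437% to 0.649%) and 0.568% ± 0.0384 in WT (range 0.525% to 0.614%; SD, n = 4 each), and the ranges overlapped. Within cytosolic HSP70, the share of TPM from Hspa1a and Hspa1b was 0.797%, 1.43%, 0.664% and 0.0391% in HET 1 to 4. It was 9.06%, 4.49%, 6.04% and 9.83% in WT 1 to 4. As counted, Hspa8 supplied over 90% of these HSP70 transcripts in every library. The inducible pair averaged 0.734% ± 0.572 in HET and 7.35% ± 2.52 in WT. Its share may be too low, since how reads shared by the pair were counted is not known. Within HSP90, the share of Hsp90aa1 was 23.8% ± 0.794 in HET and 22.8% ± 2.26 in WT, with overlapping ranges. For the mitochondrial chamber and its lid, the ratio of Hspe1 to Hspd1 TPM was 2.36, 2.55, 1.91 and 2.42 in HET 1 to 4 and 3.16, 2.57, 2.31 and 3.39 in WT 1 to 4. This ratio overlapped between the groups, and the lid transcript was the more abundant per length in every library.

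**Figure D3:**
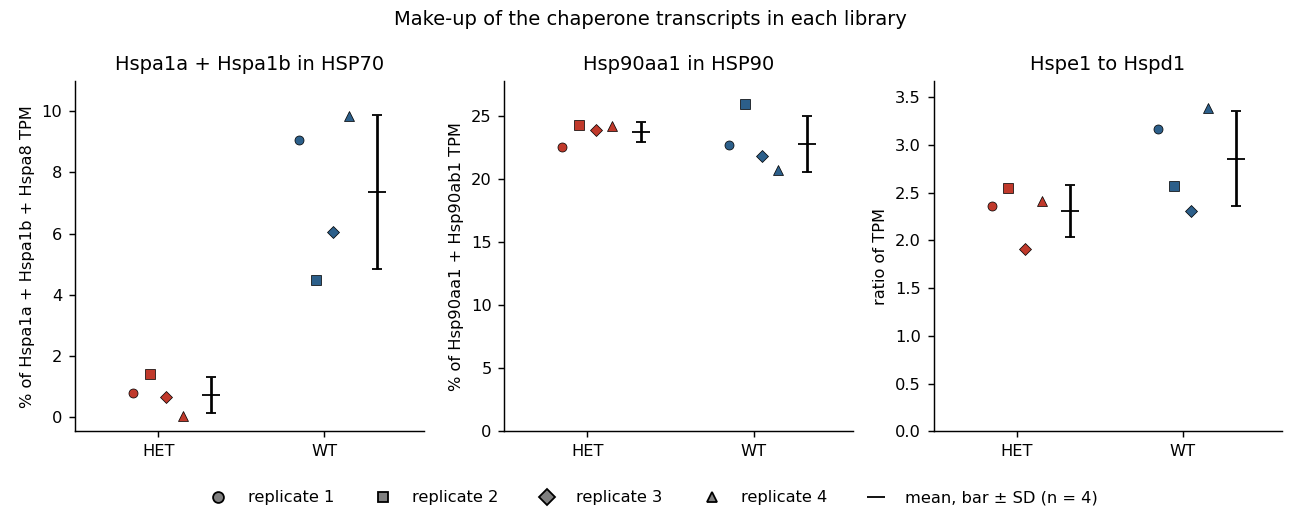
Make-up of 3 chaperone families in each HET and WT library, from the authors' TPM: the share of Hspa1a plus Hspa1b in HSP70 (left, %), the share of Hsp90aa1 in HSP90 (middle, %) and the ratio of Hspe1 to Hspd1 (right), with points shaped by replicate and mean ± SD (n = 4). The HSP70 share is at most 1.43% in HET and at least 4.49% in WT, while the other measures overlap between the groups.

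Other genes of the folding machinery were followed in a list of 96 genes in 9 groups, compiled by function, of which 83 were tested. None passed an adjusted p under 0.05 in edgeR (0 of 83, against 0.0235% of all genes). An unadjusted p under 0.05 was found for 4 (4.82%, against 7.22% of all genes), and DESeq2 called 1, Dnajc15 (0.581% of all genes). The list held 51 genes with a positive and 32 with a negative log2 fold change, and its median was 0.08. Every HET library lay below every WT library for 1 gene (Dnajc5, 1.20%, against 2.62% of all genes) and above for 2 (Dnajc15 and Cct2, 2.41%, against 1.99%). Cct2 is named only because its values were seen.

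The cytosolic chaperonin TRiC, which folds actin and tubulin, and its partner prefoldin had a positive log2 fold change in 13 of 14 genes, with a median of 0.17. Over all genes, 50.1% were negative. Cct7, a TRiC subunit, was at 365 ± 36.0 CPM in HET and 302 ± 47.3 CPM in WT (log2 fold change 0.27 ± 0.12 SE). The HSP70 exchange factors and partners were positive in 8 of 9 genes with a median of 0.18, and the HSP90 co-chaperones in 9 of 15 with a median of 0.03. For Chordc1, an HSP90 co-chaperone, means were 64.8 ± 6.33 CPM in HET and 80.4 ± 12.1 CPM in WT (log2 fold change -0.31 ± 0.15 SE). An unadjusted edgeR p under 0.05 was found for 1 of the 14 TRiC and prefoldin genes (7.14%, against 7.22% of all genes). It was found for 0 of the 9 exchange factors and partners and 0 of the 15 co-chaperones. None of these genes passed the edgeR test adjusted over all genes.

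Other HSP70 family genes were positive in 4 of 7, with a median of 0.03, and include Hspa14, a ribosome-bound HSP70, at 78.3 ± 6.31 CPM in HET and 63.4 ± 8.80 CPM in WT (log2 fold change 0.30 ± 0.15 SE). J-proteins were positive in 10 of 18, with a median of 0.06, and 2 of them had the lowest unadjusted p of the list, 1 in each direction. Dnajc15, a J-protein of the mitochondrial inner membrane, was at 59.7, 64.6, 69.1 and 64.9 CPM in HET 1 to 4 and 39.0, 50.5, 41.4 and 35.5 CPM in WT 1 to 4. All HET libraries were above all WT libraries for Dnajc15, with a log2 fold change of 0.63 ± 0.16 (SE), an edgeR adjusted p of 0.328 and a DESeq2 adjusted p of 0.0194. Dnajc5, the J-protein of synaptic and secretory vesicles, was at 114, 114, 112 and 114 CPM in HET 1 to 4 and 147, 145, 168 and 127 CPM in WT 1 to 4, with the groups apart the other way. Its log2 fold change was -0.37 ± 0.11 (SE) and its edgeR adjusted p was 0.492.

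Mitochondrial chaperones and proteases were positive in 6 of 10 genes, with a median of 0.09 and a highest value of 0.28, against 0.46 for Hspd1. Dnajc15, of the mitochondrial inner membrane but grouped with the J-proteins, was higher at 0.63. Of the 7 small heat shock proteins, 5 were in the count table and 2 passed the filter on low counts. The other HSF factors and regulators were mostly too scarce to test, with 2 of 6 tested. The other HSF1-induced genes were negative in 6 of 6 tested, against 50.1% of all genes. Their median was -0.22, with values from -0.06 for Ubb (SE 0.08), a ubiquitin gene, to -1.21 for Hmox1 (SE 1.02), the heme-degrading enzyme. The count of signs takes no account of these SEs. None of the 6 passed the edgeR test adjusted over all genes. HSF1-induced genes placed in other groups are not counted here, so this group does not stand for all genes that HSF1 induces. Of the 10 chaperone genes, 6 were positive and 4 negative.

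**Figure D4:**
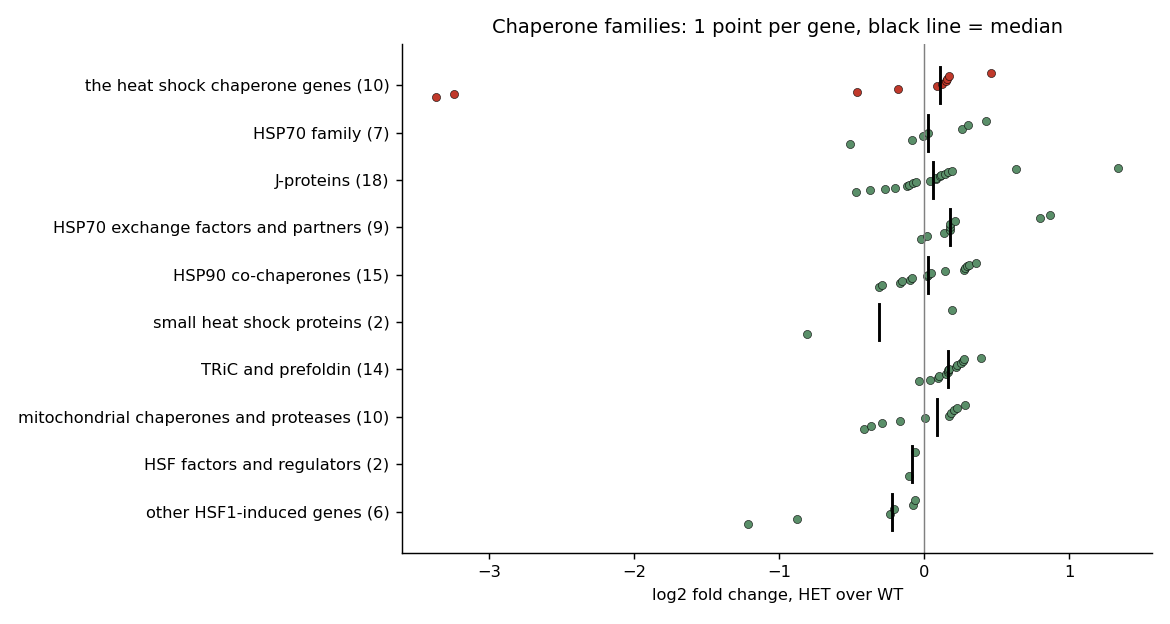
Log2 fold change (HET over WT, x axis) of the 10 heat shock chaperone genes (red) and of the 83 tested genes of the wider list by group (green), 1 point per gene, with the median of each group as a black line and the number of genes in parentheses. Hspa1a and Hspa1b are the points past -3, and the medians of the groups lie between -0.31 (small heat shock proteins, 2 genes) and 0.18.

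Lists of other genes were set beside these values, by the range of their summed level. Immediate early genes, which lymphocytes switch on within minutes of stimulation or handling, had a summed level of 1771 to 2020 CPM in HET and 2477 to 2956 CPM in WT, with 14 of 14 tested genes negative and a median of -0.41. Of these, 6 had every HET library below every WT library (2.62% of all genes), and 3 were called by edgeR, which are the 3 genes called among all 12744. B cell markers summed to 26361 to 28506 CPM in HET and 30765 to 33673 CPM in WT, with 10 of 10 negative (median -0.23), so the labelled cell type was present in every library. Both sums differed in the same direction as Hspa1a, Hspa1b and Dnajb1, and their part in the differences of these genes was not tested. In bulk libraries, fewer cells with a transcript and less of it per cell cannot be told apart.

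T cell markers summed to 279 to 554 CPM in HET and 171 to 435 CPM in WT, with 0 of 11 tested genes negative. Plasmablast markers summed to 362 to 2317 CPM in HET and 299 to 696 CPM in WT, with 2 of 9 negative, and HET 1, in which 8 of the 10 chaperone genes were lowest, had the highest sum. Of that sum, 1576 CPM was Jchain, the joining chain of secreted antibody, and without Jchain HET 1 was at 741 CPM and HET 4 at 632 CPM. Myeloid markers, of which 5 of 10 were tested and 4 of 5 were negative (median -1.10), summed to 20.4 to 59.6 CPM in HET and 29.9 to 434 CPM in WT, with the highest sum in WT 2, in which 7 of the chaperone genes were highest among WT libraries. Of that sum, 399 CPM was Lyz2, the lysozyme gene, and without Lyz2 the sums were 16.5 to 46.2 CPM in HET and 29.9 to 37.7 CPM in WT, with WT 2 at 35.4 CPM and not the highest. Jchain and Lyz2 were singled out after their values were seen. The parts of these cells in the levels of the chaperone genes were not tested. No listed gene in the table was at 0 in all libraries.

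The genes whose levels over the 8 libraries were most like the inducible chaperones were sought among 7261 others whose mean log2 CPM was 4 or more. The profile was the mean standardized log2 CPM of Hspa1a, Hspa1b, Dnajb1 and Hsph1. These are all of the chaperone genes described here that had a negative log2 fold change. Hsp90aa1, also stress-inducible, was left out, and its log2 fold change was 0.16 ± 0.14 (SE). A profile with Hsp90aa1 was not tested. Nearest was Fos, an immediate early transcription factor gene (Pearson r = 0.977, Spearman rho = 1), and the others were Cd200, Lmbrd1, Dock10 and Ifngr2, with r from 0.962 to 0.965. After group means were taken out, r was 0.814 for Fos and from 0.740 to 0.940 for these 4 genes. The genes were picked on r before that step. A profile of genes lower in HET favours others lower in HET. That all 5 were lower (log2 fold change from -0.46 to -1.43) therefore follows from the choice and is not a result. For the mean profile of Hspd1 and Hspe1 the nearest were Srm, which makes spermidine, Ncl and Ebna1bp2, both of the nucleolus, Psat1, of serine synthesis, and Ran, of nuclear transport, with r from 0.956 to 0.981 and from 0.935 to 0.968 after group means were taken out. These are descriptions over 8 libraries that come from 2 pools and share depth and composition.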

How the data were processed

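Poly(A) RNA of about 200 sorted B cells per library was measured in 8 libraries by SMART-Seq2 (no strand, no molecular identifiers). The authors checked reads with FastQC, aligned them with HISAT2 2.2.1 (submitters' processing notes) to GRCm38, sorted with Samtools and counted per gene with HTSeq-count. Annotation release, strand setting and treatment of reads with several alignments were not given in the sources used here. Whole-number counts and TPM per gene were deposited by the authors, and TPM per count, once scaled by 1 factor per library, was the same in every library to within 0.1% for all 11899 genes compared.

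The counts were fitted in edgeR 4.0.16 under R 4.3.3 (filterByExpr, TMM, robust quasi-likelihood fit, HET against WT, Benjamini-Hochberg over 12744 genes, threshold 0.05), which was checked on simulated data. SE is the log2 fold change over the square root of F. Alternatives were DESeq2 1.42.0, which the study used, scaling by RLE, leaving low genes in, a stricter filter (50 counts on average), a block for the replicate number, limma-trend 3.58.1 on log2(TPM + 1) and log2(TPM + 0.1), and each library left out in turn. Depth was 6652386 to 12559189 counts, and intervals (exact Poisson, 95%) and floors (3 counts) cover counting error only. No pair of libraries was alike within sampling noise (chi-square per degree of freedom 12.9 to 32.3). P-values measure the spread between repeats of 1 pool per group.

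The genes and all lists were chosen with earlier results of these data known. Named were the 10 genes, for the wider list those past the test or, failing these, the 3 with the lowest p in each direction (1 of these 6 is not reported here), and the 5 genes most like each profile. Positions are from GENCODE M21 and promoters from RefSeq.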

Additional observations from a re-analysis of the deposited data

Results flagged for a closer look

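For each of the 10 chaperone genes, the 6 genes of the wider list that the naming rule gave and 4 shares or ratios, the libraries of either group were examined for one that stood apart by Dixon's test at 95%. Of the 40 groups of 4 examined, 2 had such a library, and chance flags about 1 in 20, or 2 of 40. Hsp90aa1 in HET 1 was at 574 CPM, while HET 2 to 4 were between 796 and 823 CPM, a gap of 0.888 of the group's range. Hsf1 in WT 2 was at 97.7 CPM, while WT 1, 3 and 4 were between 65.9 and 68.0 CPM, a gap of 0.934 of the range. HET 1 was the deepest library and had the highest sum of plasmablast markers (1576 of 2317 CPM from Jchain). WT 2 had the highest sum of myeloid markers (399 of 434 CPM from Lyz2), and without Lyz2 it did not. The part of either in these levels was not tested.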

How the results depend on the processing

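Of the 10 chaperone genes, 4 were lower in HET under all 15 alternatives. Their median log2 fold change lay between 0.05 and 0.11 under other tests, scalings and filters and between 0.06 (without HET 4) and 0.21 (without HET 1) with a library left out. That of the wider list lay between 0.01 and 0.10. Counts of calls were less stable. All genes called, 3 in edgeR, became 88 in DESeq2, 38 with no filter, 7 with a mean of at least 50 counts, 0 on log2(TPM + 1), 1 on log2(TPM + 0.1), and 1 to 6 with a library left out (1 without any one HET library or WT 3, 6 without WT 1). Chaperone genes called, 0 of 10 in edgeR, became 3 in DESeq2 and 1 (Hspa1b) with no filter, and in the wider list 0 became 1 in DESeq2. For these counts the cause was not tested.

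Replicate numbers do not pair the libraries, whose deviations correlated between -0.05 and 0.01 for the same number, and only replicate 2 was nearest to its own number. With the replicate number as a block, 0 genes were called. No value reversed. Depth limits Hspa1b in HET, with at most 15 counts per library.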
